A study of Mus musculus with 6 samples.

Results

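The 10 genes described here encode 5 bone morphogenetic protein (BMP) ligands, Bmp2, Bmp3, Bmp4, Bmp5 and Bmp7, and 5 secreted proteins that bind and inhibit such ligands, Grem1, Nog, Fst, Sostdc1 and Chrdl1. They were chosen by name, with earlier results of these data known, out of 19938 genes measured on Affymetrix arrays. Each was read from the probe set annotated to that symbol alone with the highest mean over the 6 arrays. Every one of the 10 had a single such probe set. The arrays held total RNA of whole stomach from mouse embryos at E13.5 (E for embryonic day), 3 from embryos of the genotype Nkx3.2Cre;R26-SmoM2 (called SmoM2) and 3 from wild type embryos. SmoM2 is a form of the hedgehog transducer Smoothened that signals without ligand. It is expressed from the Rosa26 locus where Cre, driven by Nkx3-2, a gene of the stomach mesenchyme, has acted. The labels do not say whether a replicate was 1 embryo, a litter or a pool, and p-values here cover only the variation among these samples, some of it possibly technical.

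BMPs are secreted as dimers, bind pairs of type I and type II receptors and act through Smad1, Smad5 and Smad9, which switch on genes such as the Id family. The secreted inhibitors hold ligands away from their receptors, so the signal a cell receives depends on both sets of proteins. In the gut the epithelium sends hedgehog proteins to the mesenchyme, where Bmp4 is a known hedgehog-responsive gene. In the chick, BMP signalling helps to place the pyloric sphincter at the end of the stomach, and Nkx3-2 limits Bmp4 in the gizzard.

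Signals are on the log2 scale of RMA (robust multi-array average), and a change is the mean of SmoM2 minus the mean of wild type. With limma and Benjamini-Hochberg adjustment over all genes, 196 of the 19938 genes passed an adjusted p of 0.05, which is 0.983%. Of these, 65 were higher in SmoM2 (0.326%) and 131 lower (0.657%). The hedgehog readout Hhip, which binds hedgehog ligands, rose 2.43-fold (adjusted p = 0.000175), and the hedgehog receptor Ptch1 rose 1.40-fold (adjusted p = 0.0174). Gli1, a transcription factor of the pathway, and Smo had changes of 0.42 and 0.35 (adjusted p = 0.0727 and 0.154), and Nkx3-2 one of -0.12 (adjusted p = 0.648). Signals of sex-linked genes differed between the arrays. Xist, the RNA of the inactive X chromosome, was at 11.43 to 12.37 in SmoM2, and at 7.11 in wild type 1 against 11.94 and 11.68 in wild type 2 and 3. The mean of 3 Y-linked genes was 8.71, 8.94 and 9.27 in SmoM2 and 10.37, 9.92 and 9.07 in wild type, so it differed with the groups as well. Olfactory and vomeronasal receptor genes, taken as a mark of dim probe sets, had a 95th percentile of 7.93 to 8.25 over the arrays.

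Reference promoter windows, from 250 bases before to 50 bases after the annotated start, were at hand for 3 of the 10 genes, Grem1, Bmp5 and Bmp4. All windows at hand are shown, and there was none for Sostdc1. All SmoM2 arrays lay above all wild type arrays for these 3 genes, as they did for Fst, Sostdc1 and Chrdl1. The windows differ in base composition. The sequences are from RefSeq on GRCm38.p6, read 5′ to 3′ on the strand of the gene, and capitals mark CpG dinucleotides.
Grem1, chr2:113758599-113758898, minus strand: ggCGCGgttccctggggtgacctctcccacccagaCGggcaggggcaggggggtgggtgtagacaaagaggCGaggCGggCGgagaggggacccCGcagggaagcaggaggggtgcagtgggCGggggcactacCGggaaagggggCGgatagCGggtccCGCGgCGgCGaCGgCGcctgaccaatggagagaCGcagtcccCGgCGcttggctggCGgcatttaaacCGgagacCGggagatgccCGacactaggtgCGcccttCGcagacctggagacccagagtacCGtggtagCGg
Bmp5, chr9:75775115-75775414, plus strand: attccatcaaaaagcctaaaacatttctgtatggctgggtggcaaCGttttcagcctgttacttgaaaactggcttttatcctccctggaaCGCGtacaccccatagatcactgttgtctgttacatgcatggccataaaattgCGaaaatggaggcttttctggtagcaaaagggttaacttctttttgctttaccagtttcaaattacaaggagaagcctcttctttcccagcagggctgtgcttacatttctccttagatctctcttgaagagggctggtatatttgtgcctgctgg
Bmp4, chr14:46390620-46390919, minus strand: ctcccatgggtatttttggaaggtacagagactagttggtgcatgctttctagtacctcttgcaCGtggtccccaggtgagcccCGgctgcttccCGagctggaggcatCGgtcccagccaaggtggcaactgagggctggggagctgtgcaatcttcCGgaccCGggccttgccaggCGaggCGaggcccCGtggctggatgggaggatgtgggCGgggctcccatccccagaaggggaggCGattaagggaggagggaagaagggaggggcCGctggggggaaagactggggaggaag
The Grem1 window held 28 CpG and was 70.7% G and C, the Bmp4 window held 12 CpG at 64.0% and the Bmp5 window 4 CpG at 43.3%. Of the 32851 windows of the same length, 14.2% held at least as many CpG as Grem1, 39.6% as many as Bmp4 and 68.6% as many as Bmp5. The letters of the GLI consensus, GACCACCCA, searched on both strands, were in none of the 3 windows, exactly or with 1 mismatch. They were in 0.253% of all windows exactly and in 6.74% with up to 1 mismatch. GGCGCC, a GC box found in BMP-responsive promoters, which reads the same on both strands, stood once in the Grem1 window, starting 78 bases before the start site, and in 11.9% of all windows. TATAAA, on either strand, was in none of the 3 and in 13.6% of all windows.

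Among the 10 genes 3 rose in SmoM2, the inhibitors Sostdc1 (1.61-fold) and Grem1 (1.45-fold) and the ligand Bmp5 (1.35-fold), against 0.326% of all genes, and 0 fell. Since the 10 were chosen with earlier results of these data known, setting them beside all genes is a description only. All 5 inhibitors had a positive change, with a median of 0.54. The ligands were mixed, with 3 positive and 2 negative changes and a median of 0.22. Over all genes tested the median change was 0.0018 and 10121 changes were positive. In 7 of the 10 genes the groups did not overlap, 6 with SmoM2 above wild type and 1, Bmp7, with SmoM2 below it. The groups of 15.7% of all genes did not overlap, 5.64% with SmoM2 above and 10.1% with SmoM2 below.

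**Figure D1:**
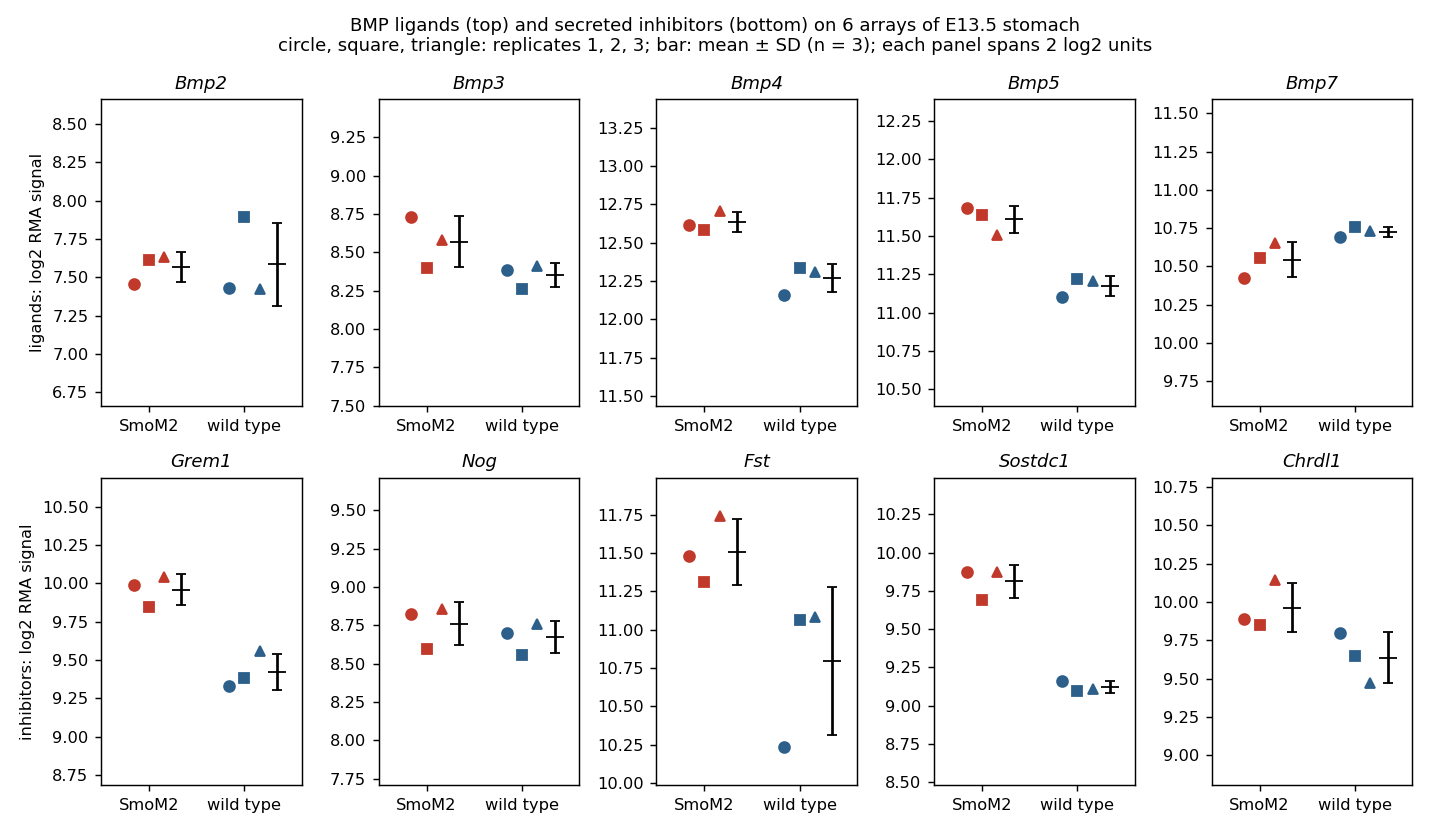
Log2 RMA signal (y axis) of the 5 ligands (top) and the 5 inhibitors (bottom) on the 3 SmoM2 arrays (left, red) and the 3 wild type arrays (right, blue), with mean ± SD. Circles, squares and triangles are replicates 1, 2 and 3, which were not treated as paired, and each panel spans the same log2 width. Sostdc1, Grem1 and Bmp5 have groups well apart, and the wild type 1 value of Fst lies far below its other values.

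Bmp5, a ligand of the subgroup that also holds Bmp6 and Bmp7, stood at 11.68, 11.64 and 11.51 in SmoM2, against 11.10, 11.22 and 11.21 in wild type. The lowest SmoM2 array was above the highest wild type array. Its change was 0.43 (SE 0.07, adjusted p = 0.0303, limma). Bmp4, the ligand best known as a hedgehog-responsive gene of the gut mesenchyme, was at 12.61, 12.58 and 12.71 in SmoM2 and at 12.16, 12.33 and 12.31 in wild type. These groups did not overlap either. The change of 0.37 (95% confidence interval 0.20 to 0.54) had an adjusted p of 0.0635, above the threshold.

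Bmp7, which epithelia and mesenchyme of many organs make, was the ligand with the opposite order. It was at 10.42, 10.56 and 10.65 in SmoM2 and at 10.69, 10.76 and 10.73 in wild type. Each SmoM2 array was below each wild type array, while the change of -0.18 (95% confidence interval -0.35 to -0.01) had an adjusted p of 0.437. Bmp3, known in bone as a ligand that opposes other BMPs, was at 8.73, 8.40 and 8.58 in SmoM2 and at 8.38, 8.26 and 8.41 in wild type. Here SmoM2 2 lay within the range of wild type, and the adjusted p was 0.445 for a change of 0.22. Bmp2, the closest relative of Bmp4, was at 7.45, 7.61 and 7.63 in SmoM2 and at 7.43, 7.89 and 7.42 in wild type. All 6 values were below the 95th percentile of the olfactory and vomeronasal receptor genes, in the range of dim probe sets. Its change was -0.02, with a 95% confidence interval of -0.30 to 0.26 (adjusted p = 0.985).

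Sostdc1, which binds BMPs and also dampens Wnt signalling, had the smallest p-value of the 10 genes and ranked 25 among all 19938. It was at 9.87, 9.69 and 9.87 in SmoM2 and at 9.16, 9.09 and 9.11 in wild type. The gap between the groups was larger than the spread within either, with an SD of 0.11 in SmoM2 and 0.04 in wild type. The change was 0.69 (SE 0.08, adjusted p = 0.00427, limma). Grem1, or gremlin, which in the gut is made by cells of the muscle layers and under the epithelium, was at 9.99, 9.85 and 10.04 in SmoM2. Its wild type values were 9.33, 9.38 and 9.56. Again every SmoM2 array was above every wild type array, with a change of 0.54 (SE 0.09, adjusted p = 0.0241, limma).

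Fst, follistatin, which binds activins tightly and some BMPs more weakly, had the widest spread of the 10. It was at 11.48, 11.31 and 11.74 in SmoM2 and at 10.24, 11.06 and 11.08 in wild type. The groups did not overlap, but wild type 1, the array with the low Xist signal, stood far below the other two. The change of 0.71 had an SE of 0.21 and an adjusted p of 0.201, and without wild type 1 it was 0.44 (adjusted p = 0.351). With the mean of the Y-linked genes as a covariate it was 0.39 (adjusted p = 1.00).

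Chrdl1, a chordin-like protein encoded on the X chromosome, was at 9.89, 9.85 and 10.14 in SmoM2 and at 9.80, 9.65 and 9.47 in wild type. The groups were next to each other without overlap, and the change of 0.32 (95% confidence interval 0.09 to 0.56) had an adjusted p of 0.276. The highest of the wild type values was that of wild type 1, the array with the low Xist signal, and with the Y-linked covariate the change was 0.55 (adjusted p = 0.174). Nog, or noggin, a high-affinity inhibitor of BMPs, was at 8.83, 8.60 and 8.86 in SmoM2 and at 8.70, 8.56 and 8.76 in wild type. These groups overlapped, and the change was 0.09 (95% confidence interval -0.12 to 0.29, adjusted p = 0.822).

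**Figure D2:**
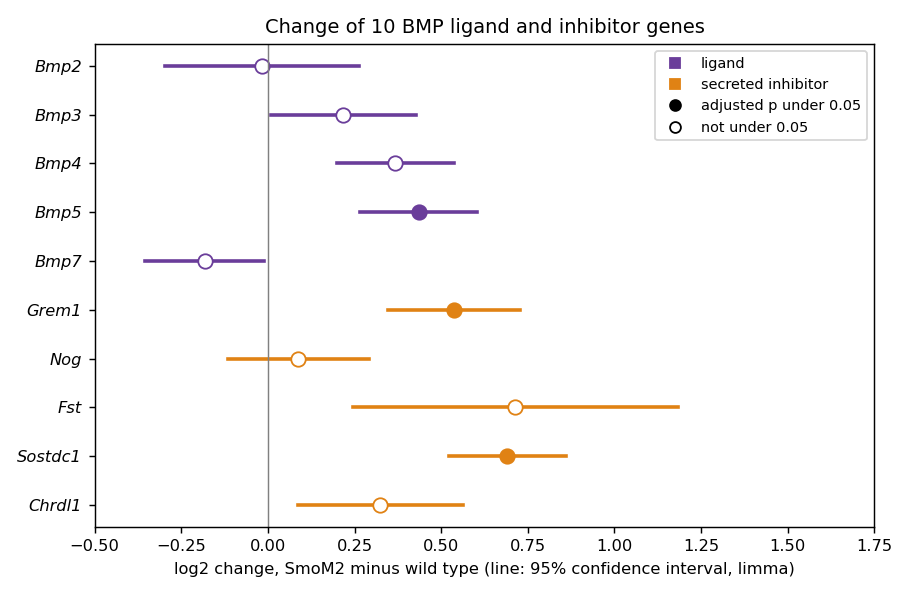
Log2 change (x axis, SmoM2 minus wild type) of each ligand (purple) and each secreted inhibitor (orange), with the 95% confidence interval from limma on 3 against 3 arrays. Filled points passed the adjusted p of 0.05, as Bmp5, Grem1 and Sostdc1 did, and the interval of Fst is the widest.

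To set ligands against inhibitors, each gene was centred on its wild type mean and the 5 genes of a set were averaged on each array. The inhibitors averaged 0.48, 0.33 and 0.60 in SmoM2 and -0.08, 0.02 and 0.07 in wild type. The ligands averaged 0.16, 0.14 and 0.20 in SmoM2 and -0.07, 0.07 and -0.0047 in wild type. So on each of the 3 SmoM2 arrays the average of these 5 inhibitors was farther from wild type than that of the ligands. Since the genes were chosen with earlier results known, this is a description and carries no p-value. Fst, with its low value on wild type 1, is 1 of the 5 inhibitors averaged. The 11 other secreted BMP-binding proteins measured, averaged in the same way, were at 0.05, -0.05 and 0.02 in SmoM2. In wild type they were at -0.01, -0.03 and 0.04.

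The rest of the pathway was read from 6 lists, of which 70 of 75 genes were measured, and 0 of the 70 passed the adjusted p of 0.05 in limma, where 0.983% of all genes did. At an unadjusted p under 0.05 there were 11 of 70, 1 higher (3.29% of all genes were) and 10 lower (7.24%), and 10.5% of all genes in either direction. The median change over the 70 was -0.03.

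Other ligands of the BMP, GDF and activin family had a median change of 0.01 over 17 genes. Of these, 14 had overlapping groups, as did 16802 of all 19938 genes. Gdf6, a growth factor of joints and the eye, had the change farthest from 0 among them. It was at 9.62 ± 0.10 in SmoM2 and 9.93 ± 0.13 in wild type (SD, n = 3 each), and the adjusted p from limma was 0.176. Mstn, the muscle growth inhibitor myostatin, had a change of -0.25 (adjusted p = 0.298) at mean signals of 6.95 in SmoM2 and 7.20 in wild type, in the dim range. Other secreted BMP-binding proteins had a median of -0.02 over 11 genes, from -0.10 for Fstl1 to 0.16 for Chrdl2. Chrd, the chordin gene itself, had a change of 0.02 (95% confidence interval -0.14 to 0.18). Twsg1, a cofactor of chordin, had one of -0.02 (95% confidence interval -0.20 to 0.16). Bmper, another extracellular modulator of BMPs, had a change of 0.12 (adjusted p = 0.662). Chrd, Twsg1 and Fstl1 were chosen for naming after their values were seen.

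Receptors and coreceptors had a median change of -0.04 over 12 genes. Bmpr1a, a type I receptor, had a change of -0.01 (95% confidence interval -0.18 to 0.17) and Bmpr2, the type II receptor, one of -0.16 (95% confidence interval -0.41 to 0.08). Both were named after their values were seen. Bambi, a decoy receptor that BMPs induce, was at 10.33 ± 0.05 in SmoM2 and 10.58 ± 0.03 in wild type (SD, n = 3 each, adjusted p = 0.149, limma). Eng, a coreceptor of endothelial cells, had a change of -0.23 (adjusted p = 0.231). Of the Smad transducers and their brakes, Skil, a repressor of Smad activity, and Smad7, an inhibitory Smad, had the changes farthest from 0, at -0.20 and -0.16 (adjusted p = 0.421 and 0.490). That list had a median of -0.04 over 11 genes. The proteases that cut chordin or mature the ligands had a median of -0.05 over 8 genes. Bmp1, a protease that cuts chordin and procollagens and is no BMP ligand, was at -0.20 (adjusted p = 0.320), and Furin, which cleaves the ligand precursors, was at -0.13 (adjusted p = 0.633).

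The BMP target genes had mostly negative changes. Of 11 measured, 10 had a negative change, as did 9817 of all 19938 genes. In 6 all SmoM2 arrays were below all wild type arrays, which holds for 10.1% of all genes. None of the 11 passed the adjusted p of 0.05 in limma, and their median change was -0.15. At an unadjusted p under 0.05 there were 4 lower, as were 7.24% of all genes. Id1, a direct Smad target that blocks helix-loop-helix factors, was at 10.77, 10.91 and 10.79 in SmoM2 and at 11.29, 11.12 and 11.08 in wild type. The groups did not overlap, and the adjusted p of its change of -0.34 was 0.108. Id3, of the same family, had a change of -0.29 (adjusted p = 0.274), and Id2 one of -0.01 (95% confidence interval -0.16 to 0.13). Nkx2-5, a homeobox gene of the pyloric mesenchyme that BMP induces in the chick, was at 10.16 ± 0.10 in SmoM2 and 10.28 ± 0.02 in wild type (SD, n = 3 each). Its groups overlapped (adjusted p = 0.641, limma). Id2 and Nkx2-5 were named after their values were seen. Any link between the values of the target genes and those of the inhibitors was not tested.

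**Figure D3:**
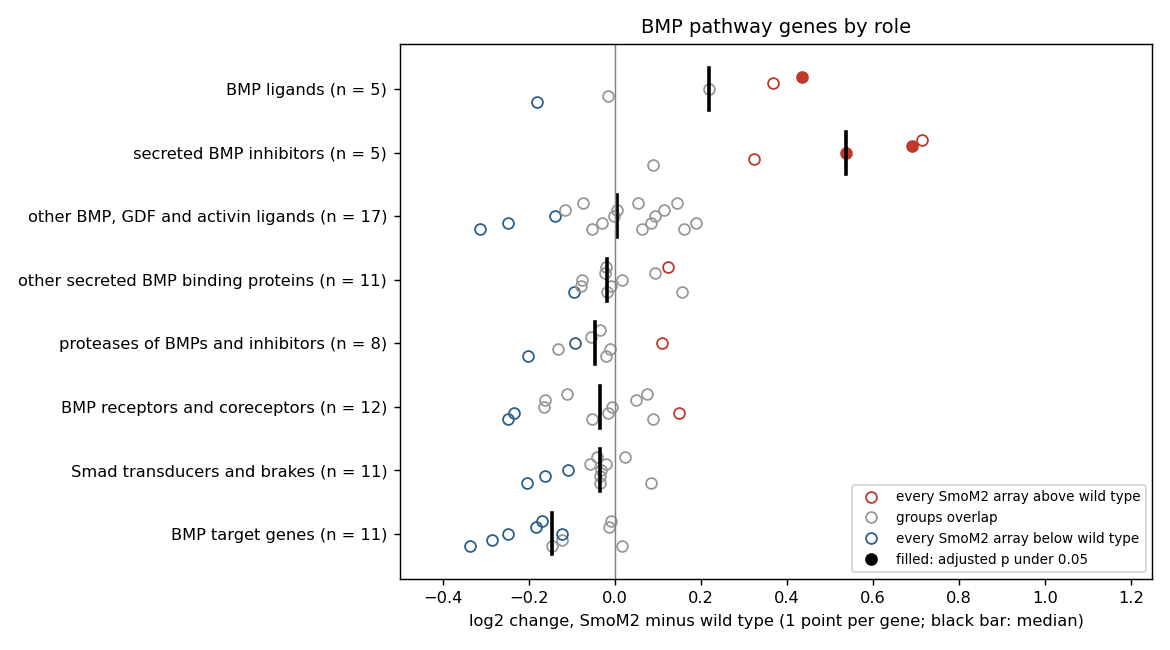
Log2 change (x axis, SmoM2 minus wild type) of each measured gene of the BMP pathway, in rows by role, with the median of each row as a black bar. Red points have all SmoM2 arrays above wild type, blue points all SmoM2 arrays below, grey points overlapping groups, and filled points passed the adjusted p of 0.05. The 5 chosen inhibitors have the highest median, 0.54, and the target genes the lowest, -0.15. The median of the 11 other secreted BMP-binding proteins is -0.02.

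The stomach was measured whole, so fewer cells of a type and less RNA per cell cannot be told apart, and markers of several cell types differed between the same arrays. Marker levels are given as mean log2 signals of a list, a scale on which RMA leaves no value at 0. Beside the counts of markers that follow, 0.326% of all genes rose and 0.657% fell. Of 9 smooth muscle markers 4 rose and 1 fell, and their mean signal was 10.47 to 10.68 in SmoM2 and 10.19 to 10.24 in wild type. Myocd, the coactivator of smooth muscle genes, had the change farthest from 0 among them, at 0.86 (adjusted p = 0.00111), and Des was the 1 that fell (change -0.54, adjusted p = 0.0263). The others that rose were Acta2, Actg2 and Myl9. Of 5 markers of subepithelial mesenchyme 4 rose, the forkhead genes Foxl1, Foxf1 and Foxf2 and the growth factor Nrg1, with a mean signal of the list of 11.32 to 11.43 in SmoM2 and 10.84 to 10.95 in wild type. The remaining marker of that list, Pdgfra, had a change of 0.02 (adjusted p = 0.967, limma). Epithelial markers were lower, with 7 of 12 that fell, Esrp1 (change -0.68), Cldn6 (-0.66), Cdh1, Epcam, Krt8, Krt18 and Cldn4, and a mean of 10.03 to 10.21 in SmoM2 and 10.52 to 10.66 in wild type. Of 7 mesothelial markers 4 fell, Wt1, Bnc1, Krt7 and Igfbp5, and 0 rose, at means of 9.96 to 10.08 in SmoM2 and 10.37 to 10.46 in wild type.

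Endothelial markers, from a cell type that itself expresses Id1, Id3 and Eng, had a mean of 10.53 to 10.69 in SmoM2 and 10.81 to 10.86 in wild type. None of the 6 passed, and all 6 had a negative change, with Kdr at -0.36 (adjusted p = 0.101) and Tek at -0.32 (adjusted p = 0.225). Of 8 neuronal and glial markers 3 fell, Dcx, Nefm and Nefl, and the mean of the list was 9.60 to 9.80 in SmoM2 and 9.92 to 10.11 in wild type. The list was mixed, with 5 negative and 3 positive changes and a median of -0.08. Those positive were Ret (0.05), Sox10 (0.11) and Ednrb (0.32). Of 5 spleen and pancreas markers 3 fell, Tlx1, Cpa1 and Gcg, at a mean of 9.11 to 9.26 in SmoM2 and 9.68 to 9.92 in wild type. None of the 5 erythroid and 6 leukocyte markers passed. Their means were 11.72 to 11.86 and 8.46 to 8.65 in SmoM2 and 11.92 to 12.10 and 8.78 to 8.89 in wild type, with the changes farthest from 0 at -0.38 for Hbb-bh1 and -0.37 for Alas2, and at -0.48 for Pf4 and -0.39 for Lyz2. The part of any of these cell types in the values of the 10 BMP genes was not tested.

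For the 3 genes that rose, the other genes with the most similar values were sought by the mean absolute distance between profiles over the 6 arrays, each profile centred on its own mean. Nearest to Bmp5 was Foxd1, a forkhead factor, at a distance of 0.02, followed by Bnip3, a mitophagy gene, and Ptch1, at 0.04 and 0.05. None of the 10 probe sets numbered next to that of Bnip3 belongs to a gene on its chromosome, so the locus this probe set reports is uncertain. Nearest to Grem1 was Acta2, the smooth muscle actin, at 0.06, followed by Slc4a10, a bicarbonate transporter, and Klhl38. Nearest to Sostdc1 was Kcnd3, a potassium channel subunit, at 0.05, followed by Lix1 and Sema3a, a secreted guidance protein. These 9 genes rose as well (changes from 0.46 to 0.79), which follows from the way they were found.

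Of the 3 calls, that of Sostdc1 held whichever of the 6 arrays was left out, with an adjusted p of 0.00556 to 0.0482. Grem1 kept it in 2 of the 6, without SmoM2 2 or wild type 3, and had an adjusted p of 0.0822, 0.141, 0.133 and 0.0921 without SmoM2 1, SmoM2 3, wild type 1 and wild type 2. Bmp5 kept it in 1 of the 6, without wild type 3 (adjusted p = 0.0475), and ranged up to 0.184, its value without wild type 1. With the mean of the Y-linked genes as a covariate none of the 3 passed, at changes of 0.72 for Sostdc1, 0.43 for Grem1 and 0.35 for Bmp5 (adjusted p = 0.0608, 0.431 and 0.564). That fit made 22 calls over all genes. The covariate itself differed with the groups, so the fit cannot fully separate it from genotype. Against wild type 3 alone, the wild type array whose Y-linked signal lay in the range of SmoM2, the changes were 0.70, 0.40 and 0.40, with none past the threshold and 8 calls over all genes. In that comparison, chosen after seeing the data, the lone wild type array is assumed to vary like the SmoM2 arrays.

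**Figure D4:**
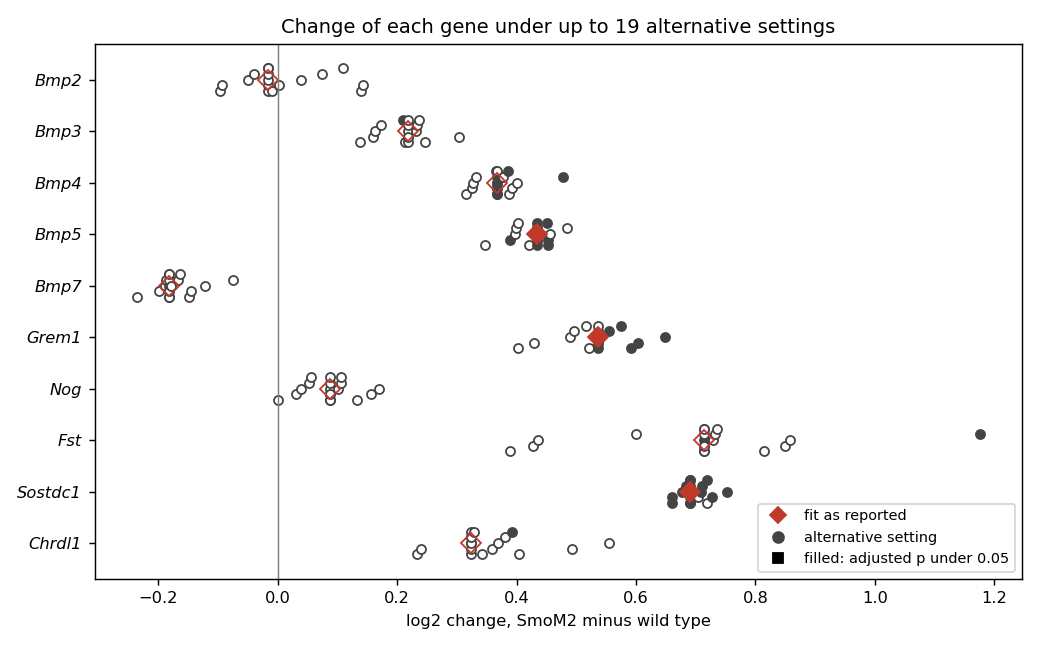
Log2 change (x axis, SmoM2 minus wild type) of each gene in the fit as reported (red diamond) and under up to 19 other settings (dark points), filled where the adjusted p was under 0.05. Sostdc1 stays between 0.66 and 0.75, Fst spans the widest range, and Bmp2 lies on both sides of 0.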

How the data were processed

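Gene expression in E13.5 stomach was measured on 6 Affymetrix arrays, 3 SmoM2 and 3 wild type, grouped by title and genotype label. The authors deposited log2 signals of 35556 probe sets, made with RMA and affy per the submitters' processing notes, which give no version. RMA draws the arrays to a common distribution, so a change in total RNA would not show. Array medians were 8.56 to 8.62. The number of arrays limits the precision.

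Platform annotation gave 1 symbol for 21789 probe sets and several for 1621, and 12146 are unnamed here. Each of 19938 genes was read from its probe set with the highest mean. The comparison of SmoM2 and wild type used lmFit and eBayes (limma 3.58.1, R 4.3.3), tested on simulated data, with Benjamini-Hochberg adjustment over all genes at 0.05. An exact permutation test of 3 against 3 cannot go below a two-sided p of 0.1. Arrays were not paired by replicate number in the limma fit.

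Genes named by rule were the 10 members, the hedgehog genes, and in each list those past the threshold and the 2 with the largest change. The 3 nearest profiles of each member that passed were named too. Pdgfra, Ret, Sox10 and Ednrb were named outside this rule, as were the genes stated to be named after their values were seen. Members and lists were chosen with earlier results of these data known. Of the 4 Y-linked genes meant for the covariate 3 were measured. Alternatives were a replicate block, leaving out arrays, filters, other probe set rules, scalings and variance models, and covariates.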

Additional observations from a re-analysis of the deposited data

How the results depend on the processing

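The count of all genes past the threshold (196) ran from 32 to 247 when 1 array was left out, that of the 10 BMP genes (3) from 1 to 3 and that of the 70 other pathway genes was 0 throughout. Over all genes, among the 10 and among the 70, array weights gave 4110, 7 and 15, with weights from 0.33 to 6.02 whose estimation stopped before convergence. The Y-linked covariate gave 22, 0 and 0, and wild type 3 alone 8, 0 and 0. Each probe set as a row, unnamed ones included, gave 5, 0 and 0, and the intensity trend gave 336, 4 and 1. A term for 2 sets of arrays (wild type 3 and SmoM2 1 against the other 4, chosen after seeing the data because they deviate together) gave 663, 4 and 2. With only probe sets above the 75th percentile 218 of 5760 genes passed. Of the 10, 4 were left to test and 2 passed. Of the 70, not all of which were left to test, 2 passed, Bambi and Id1. The causes were not tested. The replicate block gave 698, 5 and 1 and added Bmp4 and Fst to the 10 genes' calls, with Id1 among the 70. The correlations of same-numbered arrays were -0.10, 0.52 and 0.06. SmoM2 2 and SmoM2 3 matched their own number best, while SmoM2 1 matched wild type 3. These values cannot settle whether the numbers pair the samples.

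Bmp2 changed sign without SmoM2 1 (0.04), without wild type 2 (0.14), with median centring (0.0018), array weights (0.11), the Y-linked covariate (0.0736) and wild type 3 alone (0.14). Nog was at -0.00012 with wild type 3 alone and Chrdl2 at -0.0265 with the Y-linked covariate. Sostdc1 passed in 15 of its 18 alternatives, Grem1 in 11 of 18 and Bmp5 in 11 of 19, with a positive change in each. Settings that alter only the variance, the adjustment, the filter or the probe set rule leave the change of these genes as it was. So do the replicate block and the term for 2 sets of arrays, which are balanced between the groups. In all of those settings the sign could not differ. Bmp4 passed in 7 of 19, its adjusted p running from 0.000590 to 1.00. The median change was positive for ligands (0.14 to 0.37) and inhibitors (0.43 to 0.71) and negative for target genes (-0.25 to -0.11) in all 19 alternatives. These include settings that cannot move a change, such as the replicate block and the variance models, where the medians were those of the fit as reported. The values of 0.37, 0.71 and -0.25 came with only probe sets above the 75th percentile, and the filter at the median gave 0.37 as well. The 75th percentile filter left 3 ligands, 1 inhibitor, Fst, and 5 target genes, so 0.71 is the change of Fst alone. Fst moved to 1.18 with array weights. Dim probe sets, here Bmp2, limit what can be read.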
